A study of Aspergillus nidulans with 6 samples.

Results

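The genes examined here are those of the calcineurin pathway of the filamentous fungus *Aspergillus nidulans*: *cnaA* (AN8820), *cnaB* (AN6566), the calmodulin gene (AN2047) and *crzA* (AN5726). They were chosen by identifier and role, by a rule that uses no measured value, though earlier results of these data were known. They are 4 of the 10957 genes listed. Calcineurin is a serine/threonine phosphatase made of a catalytic subunit, encoded by *cnaA*, and a regulatory calcium-binding subunit, encoded by *cnaB*. When cytosolic calcium rises, calmodulin binds the catalytic subunit and the phosphatase becomes active. A well-known substrate in fungi is the zinc-finger transcription factor of the Crz family, CrzA in *A. nidulans*, which moves to the nucleus once dephosphorylated and acts in tolerance of calcium and other ions.

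RNA was sequenced from 3 strains, each with and without salt, to learn how the transcriptome responds to high salt when calcineurin or its calcium supply is impaired. The parent TN02A7 carried *pyrG89*, *riboB2* and *pyroA4*, and WSA08 (Δ*cnaB*, the single deletion) had *cnaB* replaced by *pyrG* in that background. LXA05 (Δ*cnaB*Δ*cchA*, the double deletion) had *pyrG* in place of both *cnaB* and *cchA*, the gene of a plasma membrane calcium channel, and its label lists neither *riboB2* nor *pyroA4*. All 3 strains carried *nkuA::argB2* and *veA1*. Cultures were grown from conidia for 18 h at 37°C in minimal medium with uridine, uracil, pyridoxine and riboflavin, and incubated for a further 30 min with 800 mM NaCl or without added salt. There was 1 library for each strain and treatment, and neither the number of clones nor that of cultures behind a library is given in the sources used here. Loss of *cnaB* therefore cannot be told apart from the gain of *pyrG* or from any other difference between TN02A7 and the deletion strains.

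Reads on genes, as recovered from the steps between the deposited values, numbered between 41369564 and 50006318 per library. They outnumber the reads stated for the study, so the counting intervals below are too narrow. The deposited values are reads per 1000000 (RPM) after TMM scaling (a trimmed mean of log ratios between libraries), and values below 1 are listed as 0. The scaling joined the libraries of a strain but not the strains. Salt responses are therefore given on the deposited scale, and strains were compared on a joint scale, TMM over all 6 libraries. The choice matters, since the median gene was 0.27 lower (log2) in the deletion libraries than in the parent on the deposited scale and 0.02 higher on the joint scale. A level is a share of all transcripts in a bulk culture, so fewer cells that express a gene and less RNA per cell cannot be told apart. The labels name conidia as the source. Of 6 genes of asexual spores and their formation (*brlA*, *abaA*, *wetA*, *rodA*, *dewA* and *yA*), 1 (*dewA*) was listed at 0 in every library and 1 (*yA*) was above the listing limit in all 6.

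The deleted genes were examined first. The level of *cnaB* was 86.2 normalized RPM in the parent without salt and 73.6 with salt, while the 4 libraries of the deletion strains each listed it at 0. With the listing limit of each library as the floor, put on the joint scale, *cnaB* was at least 70.8-fold lower without salt and at least 58.2-fold lower with salt. The labels thus matched the deletion in every library. In the parent, *cnaB* differed between salt and no salt by −0.23 on the log2 scale (95% exact counting interval −0.29 to −0.16), and this interval covers counting error only.

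The channel gene *cchA* (AN1168) had 74.1 normalized RPM in the parent, 80.7 in the single deletion and 3.56 in the double deletion without salt. With salt the levels were 136, 109 and 3.96 in the same order. The libraries of the double deletion were the only low ones, 17.1-fold below the parent and 22.5-fold below the single deletion without salt on the joint scale, and 27.1- and 27.0-fold below them with salt. Unlike *cnaB*, *cchA* kept a value above the listing limit in its deletion strain.

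**Figure D1:**
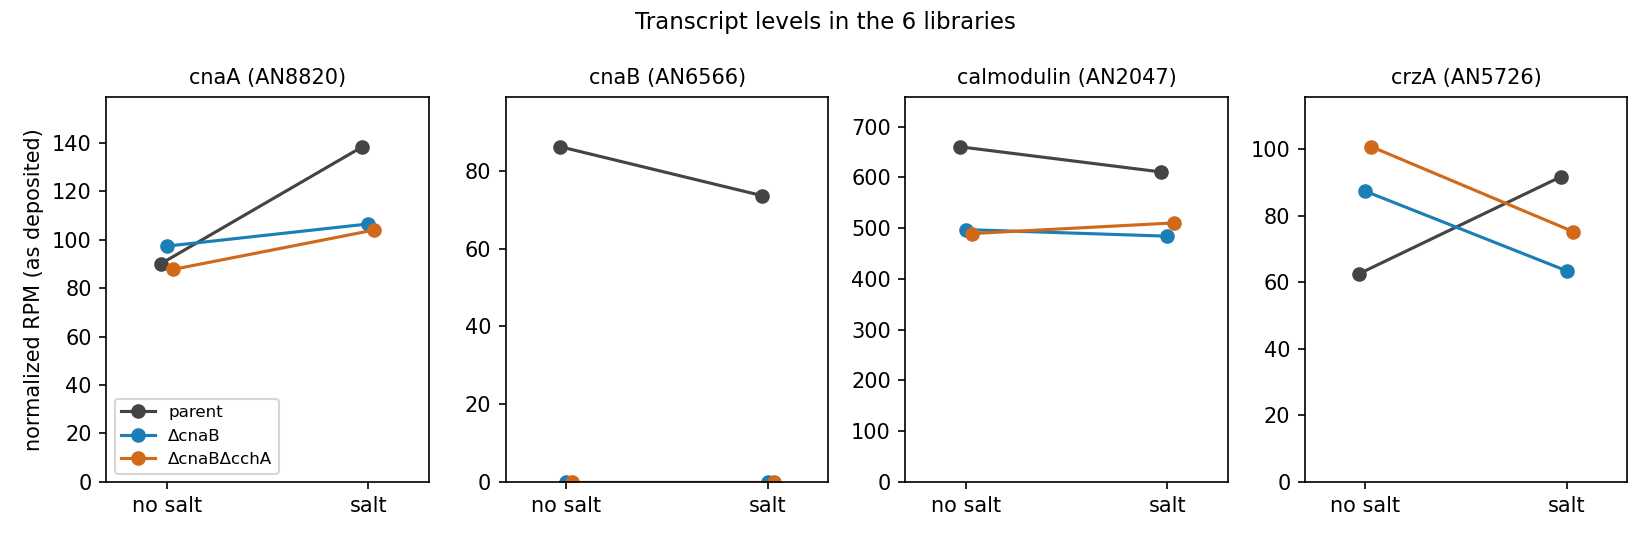
Levels of *cnaA*, *cnaB*, the calmodulin gene and *crzA* in normalized RPM as deposited (y axes, linear and starting at 0) without and with 800 mM NaCl (x axes). Each point is 1 library, a line joins the libraries of a strain, *cnaB* is at 0 in both deletion strains, and the line of *crzA* slopes upward in the parent (62.7 to 91.8) and downward in both deletion strains.

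For *cnaA*, the catalytic subunit and the direct partner of the deleted subunit, the levels without salt were 90.1 normalized RPM in the parent, 97.4 in the single deletion and 87.7 in the double deletion. With salt they were 138, 107 and 104. The salt library was the higher one in each strain (with library totals in place of the deposited scaling, the single deletion turned to −0.18 on the log2 scale), and the parent with salt stood above the other 5 libraries. The log2 difference between salt and no salt was 0.62 (95% exact counting interval 0.56 to 0.68) in the parent, 0.13 (0.07 to 0.19) in the single deletion and 0.25 (0.19 to 0.31) in the double deletion. A pattern of this kind, higher with salt in all strains and most so in the parent, was shared by 18.3% of 8673 genes.

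For the calmodulin gene, whose product activates calcineurin and many other enzymes, the levels without salt were 660 normalized RPM in the parent, 497 in the single deletion and 489 in the double deletion. With salt they were 611, 484 and 510. The log2 difference between salt and no salt was −0.11 (−0.14 to −0.09) in the parent, −0.04 (−0.07 to −0.01) in the single deletion and 0.06 (0.03 to 0.09) in the double deletion. With library totals these differences were −0.33, −0.34 and −0.17.

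For *crzA*, the transcription factor downstream of calcineurin, the levels without salt were 62.7 normalized RPM in the parent, 87.4 in the single deletion and 101 in the double deletion. With salt they were 91.8, 63.4 and 75.3. On this scale the parent was the lowest of the strains without salt and the highest with salt. The log2 difference between salt and no salt was 0.55 (0.48 to 0.62) in the parent, −0.46 (−0.54 to −0.39) in the single deletion and −0.42 (−0.49 to −0.36) in the double deletion. Opposite directions of this kind, higher with salt in the parent and lower in both deletion strains, were found in 532 of 8673 genes (6.13%). In 53 genes (0.611%) each of the 3 differences was at least as large as that of *crzA*. With library totals in place of the deposited scaling, the differences of *crzA* were 0.33, −0.77 and −0.65.

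No member exceeded a log2 difference of 1 with salt in any strain. By that limit 22.7% of genes were higher and 19.3% lower in the parent, 21.9% and 19.0% in the single deletion, and 21.0% and 18.8% in the double deletion. The salt effect over the 3 strains was tested with limma, with the strain as a block and Benjamini-Hochberg adjustment over 8673 genes, of which 28.7% were higher and 26.6% lower at an adjusted p under 0.05. None of the 3 measured partners passed. The estimate was 0.33 ± 0.14 (SE, adjusted p = 0.11) for *cnaA*, −0.03 ± 0.10 (adjusted p = 0.82) for the calmodulin gene and −0.11 ± 0.24 (adjusted p = 0.72) for *crzA*, whose strains moved in opposite directions. With the parent left out, the estimate for *crzA* was −0.44 (limma adjusted p = 0.019), the mean of the 2 deletion strains. Passing was common in such fits. Over the 3 fits with a strain left out, 1609 to 2805 genes were higher and 1100 to 2675 lower, against 2489 and 2306 with all strains.

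**Figure D2:**
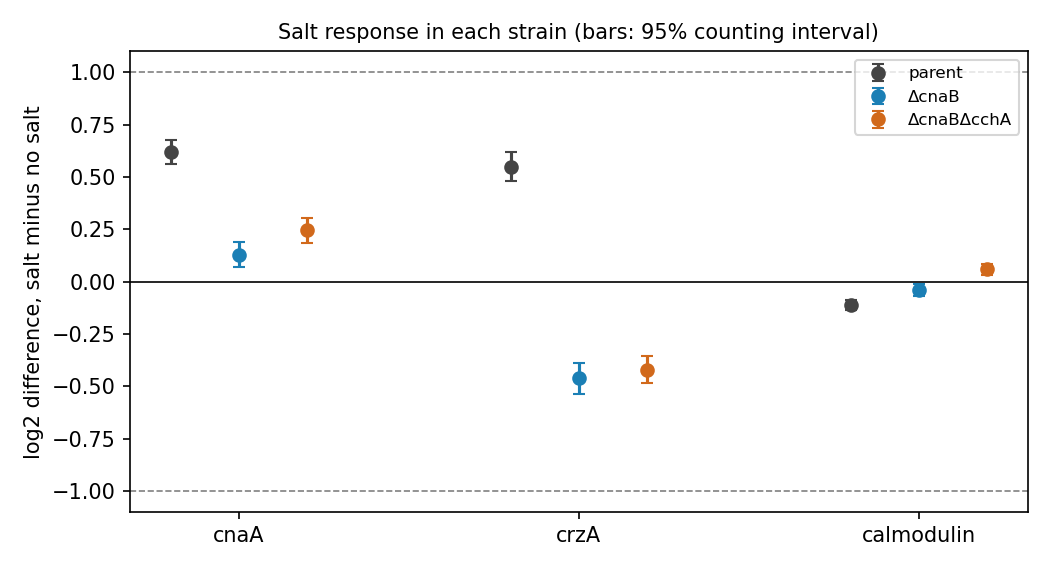
Log2 difference between the salt and the control library of each strain (y axis, deposited scale) for *cnaA*, *crzA* and the calmodulin gene (x axis). Points are strains with 1 library per treatment, bars are 95% counting intervals that cover counting error only, dashed lines mark differences of 1 and −1, and *crzA* is at 0.55 in the parent and at −0.46 and −0.42 in the deletion strains.

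Whether the partners differed when *cnaB* was absent was then examined without salt. On the joint scale *crzA* had 55.1 normalized RPM in the parent, 92.6 in the single deletion and 108 in the double deletion. Both deletion libraries were above the parent, by 0.75 and 0.97 on the log2 scale. In limma, with the deletion strains taken as replicates of *cnaB* loss, *crzA* rose by 0.86 ± 0.18 (SE; 95% interval 0.36 to 1.36; adjusted p = 0.046), a fold change of 1.81 (1.28 to 2.56). By the same test 13.2% of 8636 genes were higher and 6.09% lower. The direction was the same under all 11 alternatives, but the adjusted p ranged from 0.030 to 0.14 and was under 0.05 in 3 of them. On the deposited scale the difference was 0.58 (limma adjusted p = 0.068), and the call was also lost without any of the 4 deletion libraries, the lowest value being 0.75 (adjusted p = 0.14) without the double deletion library without salt. The parent had 1 library without salt, which was assumed to vary like the deletion libraries, and no alternative left it out.

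The other partners did not pass this test without salt. For *cnaA* the joint-scale levels were 79.2 normalized RPM in the parent, 103 in the single deletion and 93.9 in the double deletion, and the log2 difference was 0.31 (95% interval −0.02 to 0.65; limma adjusted p = 0.13). For the calmodulin gene they were 580, 527 and 523, and the difference was −0.14 (−0.51 to 0.22; limma adjusted p = 0.46). Both values moved with the scale. On the deposited scale, where the median gene was lower in the deletion libraries, *cnaA* was at 0.037 and the calmodulin gene at −0.42 (−0.78 to −0.06; limma adjusted p = 0.075), and with library totals they were at 0.063 and −0.40.

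With salt, no partner passed the test between the deletion strains and the parent, in which 5.19% of genes were higher and 1.53% lower. The joint-scale levels of *crzA* were 79.0 normalized RPM in the parent, 68.0 in the single deletion and 82.0 in the double deletion, so that on this scale the parent lay between the deletion strains. The log2 difference was −0.08 (−0.58 to 0.42; limma adjusted p = 0.80). The levels of *cnaA* were 119, 114 and 113, with a difference of −0.07 (−0.40 to 0.27; adjusted p = 0.75). Those of the calmodulin gene were 525, 519 and 556, with a difference of 0.03 (−0.34 to 0.40; adjusted p = 0.90). On this scale all 3 intervals include 0. On the deposited scale the difference of *cnaA* was −0.39 (−0.74 to −0.05; limma adjusted p = 0.11), that of *crzA* −0.41 (−0.88 to 0.06, adjusted p = 0.18) and that of the calmodulin gene −0.30 (−0.66 to 0.06; adjusted p = 0.19). With library totals they were −0.42, −0.43 and −0.32.

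**Figure D3:**
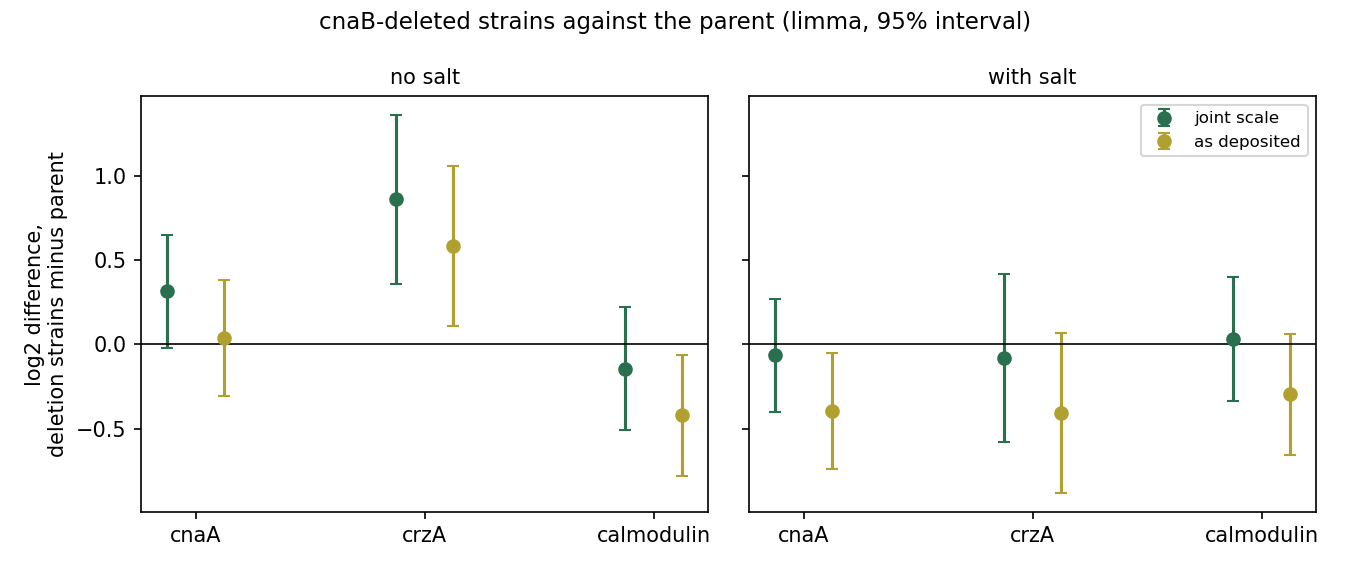
Log2 difference between the 2 *cnaB*-deleted strains and the parent (y axis) for the 3 measured partners (x axis), without salt (left) and with salt (right), from limma with 95% intervals. Green points use the joint scale and yellow points the deposited scale, and *crzA* without salt is at 0.86 on the joint scale and 0.58 on the deposited scale.

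Over both treatments, with salt as a covariate, 12.1% of 8636 genes were higher and 4.57% lower in the deletion strains, and none of the 3 partners was among them. In this and the other strain tests, genes needed a value of 1 or more in 3 libraries. A gene expressed only in the parent could therefore not be counted as lower. One expressed only in the deletion strains could be counted as higher, so the shares in the 2 directions are not on equal terms. The log2 difference was 0.39 (95% interval −0.21 to 0.98; limma adjusted p = 0.28) for *crzA*, 0.12 (−0.20 to 0.45; adjusted p = 0.52) for *cnaA* and −0.06 (−0.34 to 0.22; adjusted p = 0.74) for the calmodulin gene. The estimate for *crzA* rested on which parent library was used: it was 0.86 (limma adjusted p = 0.042) without the parent library with salt and −0.08 (adjusted p = 0.80) without the parent library without salt. On the deposited scale the estimate for *cnaA* turned to −0.18 (limma adjusted p = 0.35), that for *crzA* was 0.087 (adjusted p = 0.80) and that for the calmodulin gene was −0.36 (−0.63 to −0.09; adjusted p = 0.054).

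The difference between the salt responses themselves was tested as an interaction. For *crzA* the response of the deletion strains was 0.94 lower than that of the parent on the log2 scale (−0.94 ± 0.26, SE; 95% interval −1.64 to −0.23), and the limma adjusted p was 0.19. It was negative under all 11 alternatives, from −1.07 to −0.80, with adjusted p between 0.16 and 0.39. All of these alternatives kept both parent libraries, so they do not show whether the parent response would recur. For *cnaA* the interaction was −0.38 (limma adjusted p = 0.33) and for the calmodulin gene 0.18 (adjusted p = 0.66). Only 1 of 8636 genes (0.0116%) passed this test, AN7902, which was listed at 0 in the parent without salt. An unadjusted p under 0.05 was found for 1669 genes (19.3%). With simulated 2-fold interactions the test found 0 of 200 changed genes, and with 4-fold ones it found 185 of 200 with 29 false calls. The simulation used independent noise of SD 0.2 on the log2 scale and no other differences between strains.

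On the joint scale the calmodulin gene had the smallest spread of the 3 partners across strains and treatments, whereas with library totals *cnaA* did (SD 0.17 on the log2 scale against 0.25 for the calmodulin gene). Its levels lay between 519 and 580 normalized RPM, and its SD over the 6 libraries was 0.064 on the log2 scale. Only 3 of the 7867 genes measured above the listing limit in all libraries had a smaller SD, and the median gene had 0.54. This rank depended on the scale, since 244 genes had a smaller SD on the deposited scale and 561 with library totals. On the deposited scale all 4 deletion libraries (484 to 510) were below both parent libraries (611 to 660), and their geometric mean was 22.0% lower. Separation in that direction was found in 21.2% of genes on the deposited scale and in 9.51% on the joint scale, where the calmodulin libraries overlapped. By comparison, *cnaA* ranged from 79.2 to 119 on the joint scale and *crzA* from 55.1 to 108, a highest level 1.96 times the lowest.

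The double deletion was compared within each treatment with the single deletion, as both lack *cnaB* and only the double deletion lacks *cchA*. The double deletion also has *pyrG* in place of *cchA*, and its label lists neither *riboB2* nor *pyroA4*. Loss of *cchA* therefore cannot be told apart from these marker differences. For *crzA* the double deletion was higher by 0.22 (log2, joint scale) without salt and by 0.27 with salt. For *cnaA* the differences were −0.14 and −0.01, and for the calmodulin gene −0.01 and 0.10. With 1 library on each side these values have no replicate check. None of them passed 1, a limit that 3.35% of genes exceeded upward and 2.57% downward without salt, and 3.61% and 2.03% with salt. Against the parent, the limit was exceeded without salt by 15.0% of genes upward and 7.81% downward in the single deletion and by 17.9% and 10.1% in the double deletion. With salt the shares were 12.4% and 5.91% in the single deletion and 12.5% and 4.69% in the double deletion. Over the 9 comparisons of single libraries, 0 of the 27 values of *cnaA*, the calmodulin gene and *crzA* were past 1.

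The genes with the locus numbers on either side of that of *cnaB* were examined because *pyrG* had replaced *cnaB*. They were chosen by number and not by position, and the comparison was added after the values had been seen. AN6565 had 9.56, 6.21 and 6.19 normalized RPM without salt in the parent, the single deletion and the double deletion, and 12.4, 10.8 and 11.3 with salt. AN6567 had 63.0, 49.1 and 53.9 without salt and 60.5, 42.7 and 41.1 with salt. On the joint scale neither passed the test between the deletion strains and the parent (−0.09, limma adjusted p = 0.75, and −0.11, adjusted p = 0.54), and both remained well above the listing limit where *cnaB* was at 0.

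Of the genes that regulate calcineurin or act with calmodulin, only *cbpA* (AN6249) could be matched by symbol, out of 5 symbols. It was entered as a calcipressin, a family of calcineurin regulators. Its levels were 179 normalized RPM in the parent, 175 in the single deletion and 244 in the double deletion without salt, and 112, 65.6 and 99.6 with salt. It was lower with salt in every strain, by 1.13 on the log2 scale (−1.13, limma adjusted p = 0.0077), a call lost without the double deletion strain (−1.04, adjusted p = 0.052), and did not pass the test between the deletion strains and the parent (0.17, adjusted p = 0.66).

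Of the calcium channels and pumps, 6 genes were matched and tested, among them *cchA*, which the double deletion lacks by design. Over both treatments 0 were higher and 1 was lower in the deletion strains, against 12.1% and 4.57% of all genes, and the median difference of the list was −0.66 against 0.02 over all genes tested. The list went both ways, with 4 estimates below 0, *cchA* (−2.10) among them, and 2 above 0, the highest of them 0.50. The other, 0.20, was that of AN4897, matched as *midA* by symbol only, and whether it is the gene meant was not checked. Without *cchA* the median of the list was −0.63. The gene that fell was *pmr1* (AN7464), which encodes a calcium pump of the secretory pathway (role known from yeast). Its levels were 65.8, 38.5 and 35.0 normalized RPM without salt in the parent, the single deletion and the double deletion, and 44.9, 24.6 and 19.8 with salt. Within each treatment the parent was the highest strain, and the log2 difference on the joint scale was −0.63 ± 0.14 (SE; limma adjusted p = 0.039). It was under 0.05 in 7 of 15 alternatives, over which the adjusted p ranged from 0.015 to 0.29.

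Without salt 2 genes of the list were lower in the deletion strains, both of them calcium pumps of the P-type ATPase family, and none was higher, against 6.09% lower and 13.2% higher over all genes. They fall outside the rule for naming genes and were chosen after their values were seen. The levels of *pmcA* (AN1189) without salt were 102 normalized RPM in the parent, 8.93 in the single deletion and 11.6 in the double deletion, and 20.8, 14.2 and 11.4 with salt. The parent without salt stood far above the other 5 libraries, and *pmcA* fell by 3.04 without salt (−3.04 ± 0.26, SE; limma adjusted p = 0.0098), a call kept in 10 of 11 alternatives and lost without the double deletion library without salt (−3.23, adjusted p = 0.051). For neither of these pump genes did an alternative leave out the parent library without salt, on which the difference rests. Over both treatments the *pmcA* difference ranged from −3.04 to −0.38 with a library or strain left out. For *pmcB* (AN4920) the levels were 22.0, 4.87 and 7.54 without salt and 33.5, 34.2 and 26.3 with salt. Here the strains came together with salt, and the difference without salt was −1.57 (limma adjusted p = 0.049), a call kept in 5 of 11 alternatives and lost without any of the 4 deletion libraries (−1.88 to −1.25, limma adjusted p from 0.074 to 0.088). With salt 0 of the 6 genes passed in either direction, against 5.19% higher and 1.53% lower over all genes. The interactions did not pass the test either (2.66, limma adjusted p = 0.11, for *pmcA* and 1.73, adjusted p = 0.19, for *pmcB*), so a dependence of these differences on salt was not shown.

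**Figure D4:**
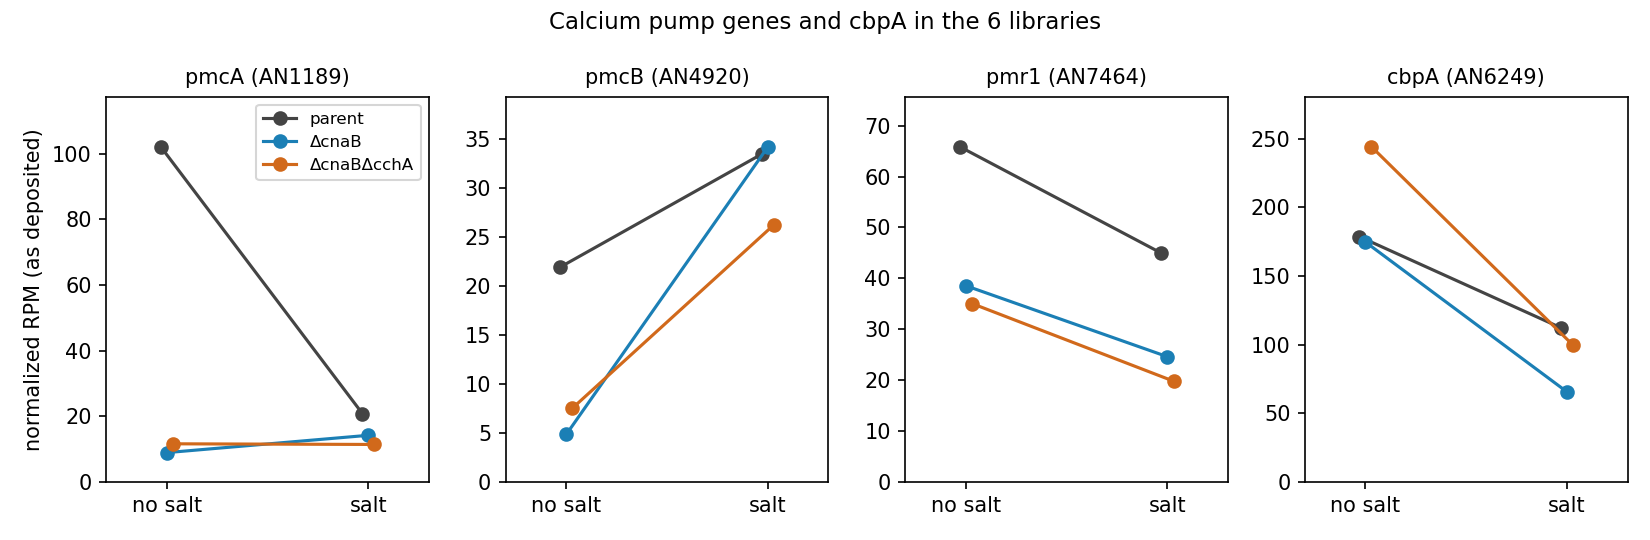
Levels of the calcium pump genes *pmcA*, *pmcB* and *pmr1* and of *cbpA* in normalized RPM as deposited (y axes, linear and starting at 0) without and with 800 mM NaCl (x axes). Each point is 1 library, a line joins the libraries of a strain, and *pmcA* in the parent goes from 102 to 20.8 while both deletion strains stay between 8.93 and 14.2.

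Of the chitin synthase genes, 7 were matched, and 3 were higher and 0 lower in the deletion strains over both treatments, against 12.1% and 4.57% of all genes. The median difference was 0.60, against 0.02 over all genes. The enzymes build the chitin of the cell wall. The gene names are RefSeq symbols that were not checked against another annotation, and *chsC* and *csmA* found no match. The genes that rose were *chsE* (AN6318, 0.78, limma adjusted p = 0.047), *csmB* (AN6317, 0.66, adjusted p = 0.033) and *chsA* (AN4566, 0.60, adjusted p = 0.029). Each was past the threshold in 6 of 15 alternatives and missed it on the deposited scale. Leaving out any library of a deletion strain also ended the call for at least 2 of these genes. Of these, *chsE* and *csmB* have consecutive locus numbers and similar profiles, so they may not be independent members of the count. Without salt *chsE* had 334, 511 and 616 normalized RPM in the parent, the single deletion and the double deletion, and *csmB* had 344, 452 and 539. With salt 2 of the 7 rose and 4 fell over the 3 strains, against 28.7% and 26.6% of all genes.

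The genes whose levels followed those of a member most closely over the 6 libraries were found by Pearson correlation among 7866 genes on the joint scale. For *crzA* they were AN8227 (r = 0.98), AN4922 (r = 0.98) and AN5170 (r = 0.97), and 9 genes in all were above 0.95. For *cnaA* they were AN4950, AN7165 and AN1470 (r = 0.99 each), with 86 genes above 0.95. For the calmodulin gene they were AN6090 (r = 0.98), AN8953 (r = 0.96) and AN2260 (r = 0.96), with 5 genes above 0.95. The levels of AN8227 ran beside those of *crzA*, at 32.9, 51.8 and 55.5 normalized RPM without salt in the parent, the single deletion and the double deletion and 47.4, 34.9 and 38.3 with salt. Among the members the correlations on this scale were 0.30 between *crzA* and *cnaA*, −0.62 between *crzA* and the calmodulin gene and −0.63 between *cnaA* and the calmodulin gene. The genes above were picked for a high r, so their values are not comparable with these. The calmodulin gene had an SD of only 0.064 (log2) on the joint scale, against 0.19 on the deposited scale. All of these correlations are descriptions over the same 6 libraries, which share strains and treatments.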

How the data were processed

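Per the sources used here, the authors trimmed and filtered the reads, used TopHat for mapping and RSEM for counting per gene, and scaled the libraries of a strain together by TMM. The deposited signal values are TMM-normalized RPM. Their heading says read count, but they are not whole. Values below 1 are listed as 0, and the 477 to 557 genes per library without a value were treated as 0. All nonzero values were whole multiples of one step per library (tolerance 0.1 read), which gave the reads (1 read was worth 0.018 to 0.026 normalized RPM). The plan assumed that a count test could be added; with low counts missing from the files it was not run. The reads outnumber those stated for the study, so the exact (Clopper-Pearson) counting intervals are too narrow.

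For strain comparisons the values were put on a joint scale (TMM over the 6 libraries, trims of 30% and 5%). Differences are of log2(value + 0.1), which understates changes between low listed values. Where a library listed a gene at 0, which stands for any value below 1, the difference can instead be too large. The shares of all genes past a limit or a test include such genes. Tests were two-sided, with limma 3.58.1 in R 4.3.3 (eBayes with trend) over genes at 1 or more in 3 libraries, Benjamini-Hochberg adjustment and a threshold of 0.05. The strains or the deletion strains served as replicates, and whether libraries came from separate cultures is not stated, so p-values measure only the spread between these libraries. On simulated data (2-fold changes, 200 genes each) limma found 199 salt and 195 strain differences. The simulated libraries held independent noise (SD 0.2 on the log2 scale), counting error and the planted change, with no other differences between strains. These counts therefore do not give the power of the tests in the real data. Python 3.11.15 was used for the rest.

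The 4 members, and the lists, were chosen with earlier results of these data known. Named were the members, *cchA*, at most 3 genes per list (the largest past the threshold over both treatments) and the 3 genes of closest profile per member except *cnaB*; *cbpA* was named as the sole match of its list. Symbols came from RefSeq (ASM1142v1, which differs from the authors' assembly), where 10029 of 10957 identifiers matched; *pmr1* was matched through an alias. The matches by symbol were not checked against another annotation. Coordinates, lengths and sequences were not used here, and levels were not compared between genes.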

Additional observations from a re-analysis of the deposited data

Results flagged for a closer look

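The salt response of *crzA* differed in direction between strains. The level was higher with salt in the parent, while both deletion strains had the lower level with salt. The response of the deletion strains minus that of the parent was −0.94 on the log2 scale, and the limma interaction did not pass the threshold (adjusted p = 0.19). The parent response rests on 1 library per treatment, and 6.13% of genes showed the same directions.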

How the results depend on the processing

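Of 177 repeats of the member tests under other settings, 155 kept both direction and side of the threshold. Both the scale and the libraries used moved the strain comparisons. The difference of *cnaA* over both treatments was −0.18 on the deposited scale and −0.18 with library totals, that of the calmodulin gene with salt −0.30 and −0.32, that of *cbpA* over both treatments −0.13 and −0.13, and that of *pmcB* with salt −0.16 and −0.18. The call of *crzA* without salt was lost with a constant of 0.01 (0.86, limma adjusted p = 0.052), with any nonzero value (0.86, adjusted p = 0.071), on the deposited scale (0.58, adjusted p = 0.068), with library totals (0.61, adjusted p = 0.066) and with each deletion library left out (0.75 to 0.97). Leaving out a library or strain gave these other ranges. For the salt effect they were −0.076 to 0.011 for the calmodulin gene, −0.44 to 0.065 for *crzA* and −1.16 to 0.32 for *pmcA*. For the strain difference over both treatments they were −0.066 to 0.31 for *cnaA*, −0.14 to 0.031 for the calmodulin gene, −0.081 to 0.86 for *crzA*, −1.57 to 0.17 for *pmcB* and −0.15 to 0.49 for *cbpA*. With salt they were −0.22 to 0.054 for *crzA*, −0.018 to 0.081 for the calmodulin gene, −0.011 to 0.35 for *pmcB* and −0.46 to 0.17 for *cbpA*. The interaction of *pmr1* went from −0.28 to 0.012. The cause was not tested. A library left alone in its group was assumed to vary like the others.

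Counts of called genes moved by over 1.5 times in 61 of 220 repeats. Over both treatments the 1045 higher and 395 lower genes became 713 to 1129 and 297 to 2003, and 127 to 1204 and 20 to 578 with a library or strain left out. Without salt 1137 and 526 became 879 to 1279 and 411 to 1739 (139 to 723 and 10 to 164 with a library left out), and with salt 448 and 132 became 300 to 539 and 111 to 429 (26 to 57 and 1 to 7). The interaction count of 0 higher and 1 lower reached 125 and 145 with any nonzero value. The salt counts of 2489 and 2306 became 1842 to 2547 and 1256 to 3083 (1609 to 2805 and 1100 to 2675). With 50% of the reads the interval of *crzA* in the parent was 0.45 to 0.65. The count test planned as an alternative was not run. The salt test pairs the libraries of a strain, and leaving that block out changed no member's call. No paired analysis was possible for the strain comparisons because the labels give no replicate numbers and each group has 1 library.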

Other observations

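Among the genes of asexual spores, *yA* (AN6635), which encodes the laccase that makes the green spore pigment, had 13.2 normalized RPM in the parent, 12.5 in the single deletion and 14.3 in the double deletion without salt, and 232, 227 and 236 with salt. The gene was singled out after its values were seen, and the other spore genes examined were at or below 14.7 normalized RPM in every library. AN7902, the sole gene past the interaction test, was listed at 0 in the parent without salt and had 1.64 normalized RPM with salt, against 1489 and 1274 without salt and 193 and 205 with salt in the single deletion and the double deletion.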
